A study of Mus musculus with 4 samples.

Results

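Gene-body H2A.Z peaks were defined as H2A.Z peaks of wild-type (WT) mouse liver whose summit lay inside a protein-coding gene, more than 5 kb from the transcription start site (TSS) of every annotated gene and more than 1 kb from the 3′ end of every coding gene, with no WT ATACseq peak within 1 kb of the summit. On chromosomes 1 to 19 the rule kept 7939 of 50665 WT H2A.Z peaks, or 15.7%. The position of the call, its height and the absence of an ATACseq call were thus what the peaks were selected on, and are given below as a description. The study profiled H2A.Z by ChIPseq and chromatin accessibility by ATACseq, with 1 library per assay and genotype. The genotypes were WT (Uhrf1 fl/fl) and Uhrf1hepKO (Uhrf1 fl/fl;Alb:Cre), in livers of C57Bl/6 male mice aged 8 to 12 weeks on a normal diet. The sample labels do not say whether both assays of a genotype used the same liver. Both genotypes carried the floxed Uhrf1 alleles, and the Alb promoter drives Cre in hepatocytes. Which other cells of the Uhrf1hepKO liver keep Uhrf1 is not shown by these data. The samples were bulk tissue, in which fewer cells with a peak and less H2A.Z per cell cannot be told apart. With 1 library per condition there was no replicate, no difference between WT and Uhrf1hepKO could be tested, and the intervals given here are 95% intervals of counting error only.

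H2A.Z is a variant of histone H2A that replaces it in a subset of nucleosomes and is best known at the nucleosomes that flank active promoters and enhancers. Enhancers often lie in introns, where a transcription factor occupies the gap between neighbouring nucleosomes. In ATACseq the Tn5 transposase inserts adapters into accessible DNA, whereas H2A.Z ChIPseq on chromatin cut by micrococcal nuclease returns DNA of single nucleosomes. UHRF1 is needed to copy DNA methylation after replication.

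The sequences that carry the main sequence finding are shown first. They are the 100 bp at the midpoints between neighbouring gene-body H2A.Z summits, for the 4 pairs with the highest lower fold enrichment among the 55 pairs whose midpoint held the letters of an HNF1 or an HNF4 motif, motifs of 2 transcription factors of hepatocytes. All are plus-strand RefSeq sequence of GRCm38, in lower case with the motif match in capitals.
Homer1 chr13:93342792-93342891: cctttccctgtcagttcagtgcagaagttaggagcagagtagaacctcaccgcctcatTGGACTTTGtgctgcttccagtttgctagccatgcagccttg
Naaladl2 chr3:23937536-23937635: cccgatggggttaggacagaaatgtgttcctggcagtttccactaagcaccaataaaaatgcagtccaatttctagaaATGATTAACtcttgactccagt
Cnnm1 chr19:43464056-43464155: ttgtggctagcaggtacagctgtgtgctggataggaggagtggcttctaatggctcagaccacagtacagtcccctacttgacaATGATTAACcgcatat
Magi2 chr5:20241625-20241724: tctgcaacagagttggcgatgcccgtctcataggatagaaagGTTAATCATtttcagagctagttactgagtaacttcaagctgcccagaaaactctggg
The capitals in Homer1, which encodes a scaffold protein of synapses, are an HNF4 match, and those in Naaladl2, Cnnm1 and Magi2 are HNF1 matches, read on either strand. The 2 summits of these pairs lay 307 bp apart in Homer1, 348 bp in Naaladl2, 391 bp in Cnnm1 and 313 bp in Magi2. For comparison, the 4 pairs with the highest lower fold of all, in Srpk2, Zfp759, Sertad2 and Cc2d2a, held none of the 9 motifs searched at their midpoints. These 4 midpoints lay inside a called peak, whereas the 4 with a match printed above lay between the 2 called peaks. The comparison is thus not of like positions. The midpoints of Srpk2, which encodes a kinase of splicing factors, and Sertad2 are shown.
Srpk2 chr5:23616432-23616531: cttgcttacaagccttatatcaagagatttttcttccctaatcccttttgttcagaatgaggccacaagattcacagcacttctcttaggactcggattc
Sertad2 chr11:20550347-20550446: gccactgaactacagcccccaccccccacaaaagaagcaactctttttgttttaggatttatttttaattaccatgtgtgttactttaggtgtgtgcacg
The peaks with the highest fold enrichment are shown as the part of each peak within 150 bp of its summit. In Sgcb, which encodes beta-sarcoglycan, the capitals mark an NFI motif. In Fars2, which encodes the mitochondrial phenylalanine tRNA synthetase, no motif searched was present. For coding exons the 2 highest peaks that overlap no untranslated exon are shown. The one in 9930021J03Rik held no motif searched, and in that of Terb1, a gene of meiotic telomere attachment, the capitals mark a C/EBP and a FOXA match.
Sgcb chr5:73637990-73638210: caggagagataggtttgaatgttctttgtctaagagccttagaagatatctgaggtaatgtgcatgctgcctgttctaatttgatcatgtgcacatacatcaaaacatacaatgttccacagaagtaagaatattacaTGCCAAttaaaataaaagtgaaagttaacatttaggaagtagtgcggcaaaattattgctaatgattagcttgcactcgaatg
Fars2 chr13:36680947-36681115: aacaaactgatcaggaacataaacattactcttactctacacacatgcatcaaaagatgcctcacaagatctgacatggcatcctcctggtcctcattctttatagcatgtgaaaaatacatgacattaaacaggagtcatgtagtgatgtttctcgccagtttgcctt
9930021J03Rik chr19:29743487-29743623: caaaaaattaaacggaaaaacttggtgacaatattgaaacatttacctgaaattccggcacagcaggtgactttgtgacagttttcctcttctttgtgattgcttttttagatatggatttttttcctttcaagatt
Terb1 chr8:104472711-104473010: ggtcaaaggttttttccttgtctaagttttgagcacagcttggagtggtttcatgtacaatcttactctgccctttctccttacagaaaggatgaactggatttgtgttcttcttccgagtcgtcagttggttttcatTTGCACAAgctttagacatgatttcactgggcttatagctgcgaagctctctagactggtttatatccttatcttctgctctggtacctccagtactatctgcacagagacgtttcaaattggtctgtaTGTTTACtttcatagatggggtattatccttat

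Most gene-body H2A.Z peaks lay in introns, in about the share that introns take of the sequence. A base was called exonic where any protein-coding transcript placed an exon. Of the 7939 summits, 7490 (94.3%, interval 93.8 to 94.8%) were intronic, 203 (2.56%) were in coding exons and 246 (3.10%) in untranslated exons. The rule was also applied to every base of the coding genes, which gave 794 Mb of eligible sequence, 80.1% of all coding gene sequence. Introns made up 95.5% of it, coding exons 2.68% and untranslated exons 1.83%. The rate was therefore 9.88 peaks per Mb of intron, 9.55 per Mb of coding exon and 16.9 per Mb of untranslated exon. Within introns, the first intron of the representative transcript had 11.5 peaks per Mb, later introns 8.88, and introns outside that transcript 15.6.

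Part of this pattern moved with the starts of alternative transcripts, which the rule did not leave out. The start of some annotated transcript lay within 1 kb of 1065 of the summits (13.4%) and within 5 kb of 2089 (26.3%). Among the untranslated-exon peaks, 127 of 246 (51.6%) lay within 1 kb of such a start. The 1065 peaks had 2.37 CpGs per 100 bp and 72.6% of them overlapped an Uhrf1hepKO peak, against 62.8% of all gene-body peaks and 70.0% of all WT H2A.Z peaks. Without the 2089 peaks, 5850 were left at 8.92 per Mb, of which 96.6% were intronic and 61.0% were present in Uhrf1hepKO.

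The fold enrichment at the summit, the pileup over the local background, had a median of 4.87 and ranged from 1.78 to 14.9. The median peak was 141 bp wide. The highest values were 14.9 in Sgcb, 13.6 in Fars2, 13.4 in Pprc1, which encodes a transcriptional coactivator, 13.4 in the homeobox gene Zfhx4 and 13.4 in 1700008O03Rik. Fignl1, the calcium channel subunit gene Cacna2d3, Srpk2 and Dhcr7, which encodes the enzyme of the last step of cholesterol synthesis, each had a peak at 13.2, and Acyp1, an acylphosphatase gene, had one at 12.9. All 10 were intronic. All 10 were overlapped by an Uhrf1hepKO peak, as were 98.6% of the gene-body peaks and 99.4% of the other WT peaks in the highest of 10 classes of fold, and the fold of the Uhrf1hepKO peak ranged from 9.99 in Dhcr7 to 16.3 in Sgcb. The highest coding-exon peaks were at 10.5 in Atp6v0e, a subunit gene of the vacuolar proton pump, 10.2 in 9930021J03Rik, 9.02 in Terb1, 8.53 in Rasa2, which encodes a GTPase activator of Ras, and 8.29 in both Pde1a and Asic5.

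The peaks on either side of each threshold are given as a description. The 197 peaks 4.5 to 5 kb from a TSS, outside the rule, had a median fold of 4.87 and 63.5% presence in Uhrf1hepKO, against 5.36 and 67.9% for the 165 peaks at 5 to 5.5 kb. The 112 peaks 0.5 to 1 kb from an ATACseq peak had a median fold of 4.87, as had the 90 at 1 to 1.5 kb. Their presence was 64.3% and 61.1%. The 81 peaks 0.5 to 1 kb from a 3′ end had a median fold of 4.87 and 67.9% presence, and the 59 at 1 to 1.5 kb had 5.12 and 59.3%.

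The peaks were spread along gene bodies, at lower rates in classes farther from the gene start. The far classes hold only long genes, so distance and gene length were not separated. The rate was 12.7 per Mb (interval 11.8 to 13.6) at 5 to 10 kb from the start of the gene, 11.7 at 10 to 20 kb, 10.8 at 20 to 50 kb, 10.2 at 50 to 100 kb, 9.66 at 100 to 200 kb and 7.72 (7.33 to 8.11) beyond 200 kb. The intervals of the first and last distance class did not overlap. Cut into 10 equal stretches from start to end, the gene bodies had rates from 11.3 per Mb, at 30 to 40% of their length, to 8.81 in the last stretch. By chromosome it ranged from 7.25 per Mb on chromosome 7 to 12.0 on chromosome 16. The Uhrf1hepKO peaks that met the same rule, 7233 of 46400, fell from 11.2 per Mb at 5 to 10 kb to 7.27 beyond 200 kb.

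A minority of genes held most of the peaks. Of 15364 coding genes with eligible sequence, 3036 (19.8%) had at least 1 gene-body H2A.Z peak. Of these, 1427 had 1 peak, 662 had 2, 520 had 3 or 4, 334 had 5 to 9 and 93 had 10 or more. Genes with 2 or more held 6556 of the 7939 peaks (82.6%, interval 81.7 to 83.4%), or 74.0% when summits within 500 bp were counted as 1. The share of genes with a peak moved with length, from 3.66% of genes with under 10 kb of eligible sequence to 79.2% of those with 250 kb or more. The rate moved the other way, from 11.9 per Mb in the shortest class to 8.23 in the longest. Genes can overlap: 149 peaks lay in more than 1 coding gene and are counted under each.

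Rad51b, a gene of DNA repair by homologous recombination, had the most peaks. It held 53 in 511 kb of eligible sequence, all intronic, with folds from 2.99 to 12.2, and 42 of them were overlapped in Uhrf1hepKO. Pde1a, a gene of a calmodulin-dependent cyclic nucleotide phosphodiesterase, held 39 in 289 kb, 29 of them overlapped in Uhrf1hepKO. Gm20388 also held 39, but it is annotated over 4435 kb that take in other coding genes. Gpc5, a glypican gene, held 31. Sox5, which encodes an SRY-box transcription factor, and Pde4d, which encodes a cyclic AMP phosphodiesterase, held 30 each. The receptor tyrosine phosphatase gene Ptprd held 29 and the potassium channel gene Kcnt2 held 27. The formin gene Fmn2, the galactosyltransferase gene B3galt1, the adhesion receptor gene Adgrv1 and Naaladl2 held 26 each. The rates of these genes were far apart: 1.35 peaks per 10 kb in Pde1a, 1.04 in Rad51b, 0.826 in Fmn2 and 0.772 in Kcnt2, but 0.222 in Gpc5, 0.207 in Pde4d and 0.133 in Ptprd.

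**Figure D1:**
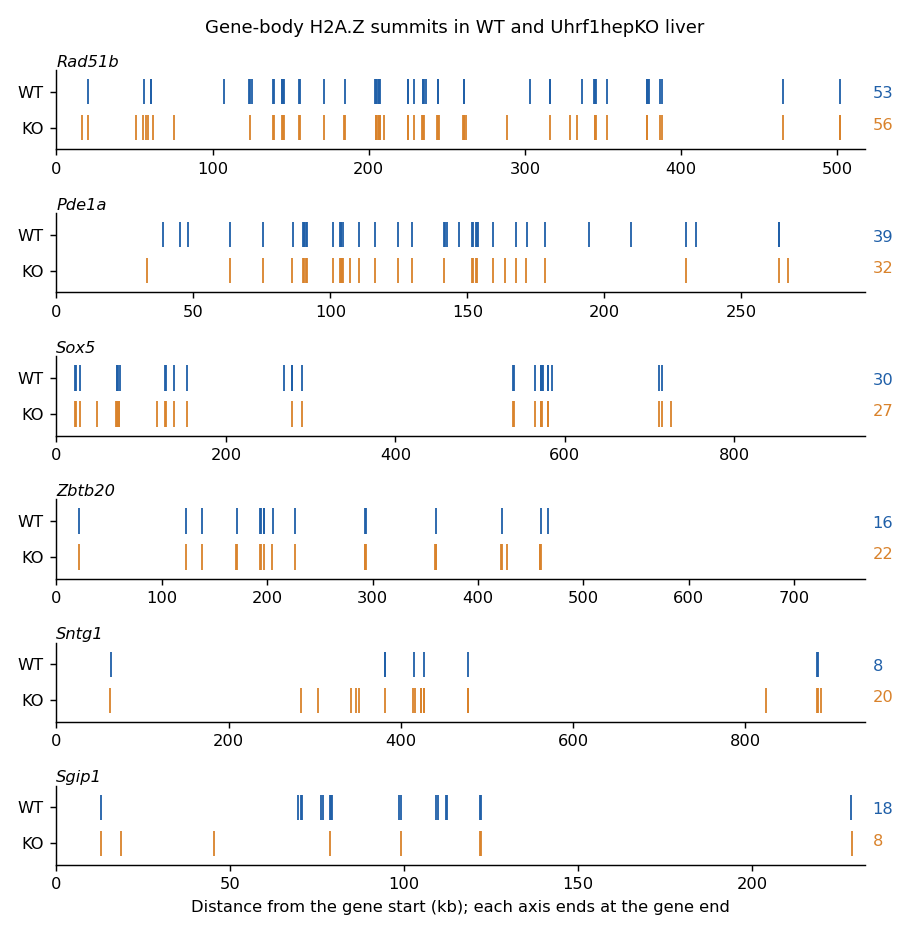
Gene-body H2A.Z summits of WT (blue, upper row) and Uhrf1hepKO liver (orange, lower row) in 6 genes, by distance from the gene start in kb, with the number of summits at the right. Rad51b and Pde1a carried 53 and 39 summits in WT, in runs along the gene, while Sntg1 had 8 in WT and 20 in Uhrf1hepKO and Sgip1 had 18 and 8.

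Among genes with at least 5 peaks, the rate was highest in Sfi1, a gene of centrosome duplication, with 9 peaks in 14.9 kb of eligible sequence or 6.05 per 10 kb. Its 9 folds were only 1.78 to 3.47, the lowest of any gene named here, and an Uhrf1hepKO peak overlapped each of them. No peaks were left out as lying in regions of artefactual signal, and whether Sfi1 holds such a region was not tested. Hmmr, which encodes a hyaluronan receptor of the mitotic spindle, had 14 peaks in 26.0 kb, of which 7 were overlapped by an Uhrf1hepKO peak. The Uhrf1hepKO list held 12 peaks of its own there. Sh2d3c, an adaptor gene, had 6 in 14.2 kb, and the transporter gene Slc6a16 had 6 in 16.3 kb. Gins1, a subunit gene of the replicative helicase complex, had 6 in 17.7 kb with folds up to 9.51. Depdc1a had 9 in 28.5 kb.

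Gene lists were described by their rate per Mb, beside 9.96 per Mb over all coding genes, where a peak in overlapping genes counts for each. Hepatocyte transcription factors had 66 peaks in 14 of 31 genes with eligible sequence, 14.6 per Mb (interval 11.3 to 18.6). Rora, a nuclear receptor gene, held 17, Zbtb20, a zinc-finger repressor gene, 16, Nfib 8 and Nr3c1, the glucocorticoid receptor gene, 5. Without Rora the rate was 12.9 (9.53 to 17.0), an interval that takes in the rate of all genes. Lipid and bile acid genes had 22 peaks in 5 of 35 genes, 13.0 per Mb (8.12 to 19.6): 8 in Acaca, which encodes acetyl-CoA carboxylase, 6 in the hepatic lipase gene Lipc, 4 in the fatty acid transporter gene Cd36 and 2 in Mttp, a gene of lipoprotein assembly, among others. Growth and hormone receptors and their adaptors had 24 in 7 of 29 genes, 10.1 per Mb (6.47 to 15.0), of which 9 lay in the insulin receptor adaptor gene Grb10, 4 in Lepr, the leptin receptor gene, and 3 each in Grb14 and Prlr. Without Grb10 the rate was 6.60 (3.69 to 10.9). Wnt and zonation genes had 9 in 5 of 22 genes, 9.17 per Mb (4.20 to 17.4), with 3 in the E-cadherin gene Cdh1, 2 each in Tcf7l1 and Slc1a2 and 1 in Axin2, a target of Wnt signalling.

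Long neuronal genes had the lowest rate among the lists with at least 20 genes. They held 199 peaks, and 32 of 36 genes had at least 1, but at 4.57 per Mb (3.96 to 5.25) over 43.6 Mb. Ptprd held 29 of them, Tenm3 20, Ctnna2 16 and Ctnna3 12. The rate of all genes with 250 kb or more of eligible sequence was 8.23 per Mb. The study's cell proliferation genes had 353 peaks in 124 of 498 genes, 13.7 per Mb (12.3 to 15.2), and without Rad51b 11.9 (10.6 to 13.3). The study took these genes from its active chromatin states, defined in part with H2A.Z and ATACseq data. Their rate is therefore not independent of the peaks. Besides Rad51b, Mcc and the fragile-site gene Fhit held 11 each and Skp2, an F-box gene of the cell cycle, 8 in 27.4 kb. The study's liver enriched genes had 30 peaks in 18 of 205 genes, 7.08 per Mb (4.78 to 10.1), with 6 in Lipc, 4 in Apoh, 3 in Fgl1 and 2 in Adamts13. The study also used H2A.Z data in defining its chromatin states, so the rates of genes it placed in state S3, dominated by H2A.Z, are not independent of the peaks: 189 in 67 of 263 genes, 15.2 per Mb, led by Kcnt2 (27), Trp63 (14), Kcnh7 (10) and Ninj2 (9). Genes of the heterochromatic state S5 had 53 in 16 of 100 genes, 8.41 per Mb, led by Rims2 with 10, Plce1 with 8, Ulk4 with 7 and Fat1 with 5.

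**Figure D2:**
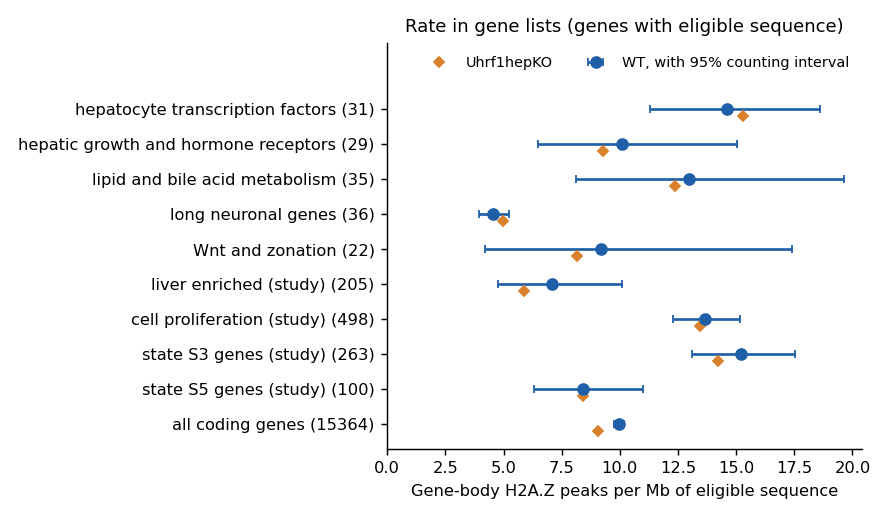
Gene-body H2A.Z peaks per Mb of eligible sequence in each gene list with at least 20 such genes (number of genes in brackets), for WT with its 95% counting interval (blue) and for Uhrf1hepKO (orange). Long neuronal genes sit at 4.57 per Mb in WT and hepatocyte transcription factors at 14.6, against 9.96 for all coding genes.

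Markers of the cell types of the liver were also listed. No peak lay in the 9 hepatocyte marker genes with eligible sequence, which together held only 0.215 Mb, so that rates up to 17.2 per Mb lay within the counting interval. Liver endothelial markers had 13 peaks in 5 of 10 genes, 23.4 per Mb (12.4 to 40): 6 in Stab2, a scavenger receptor gene of the sinusoid, 2 each in Lyve1, Flt4 and Pecam1 and 1 in Tek. Without Stab2 the rate was 16.4 (6.58 to 33.7). Stellate cell markers had 4 peaks, 3 in Reln and 1 in Rgs5, lymphocyte markers had 3, 2 in Cd4 and 1 in Ptprc, cholangiocyte markers had 2, both in Pkhd1, and Kupffer cell markers had 1, in Csf1r. Within 5 kb of the TSS, a WT H2A.Z peak was present at 1 of 10 hepatocyte markers (Ttr), 1 of 10 endothelial, 2 of 10 stellate, 3 of 7 cholangiocyte, 0 of 7 Kupffer cell and 0 of 8 lymphocyte markers, while 54.4% of all 20807 coding genes had one. A WT ATACseq peak was present at 1 of 10 hepatocyte, 0 of 10 endothelial and 1 of 10 stellate markers. It was present at 1 of 7 cholangiocyte, 0 of 7 Kupffer cell and 0 of 8 lymphocyte markers, and near the start of 31.4% of all coding genes. Whether chromatin without an ATACseq call was closed was not tested. The part of other cell types in the gene-body peaks was not tested.

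Many of the gene-body H2A.Z peaks had a close neighbour. Another WT H2A.Z summit lay within 500 bp of 34.7% (33.6 to 35.7%) of the peaks and within 1 kb of 43.4%. The fullest 50 bp step was 300 to 350 bp, with 7.78% of the peaks, and no summit lay closer than 148 bp to another. The share with a neighbour within 500 bp was 53.1% for gene-body peaks with an ATACseq peak within 1 kb, a difference of −18.4 percentage points (interval −21.4 to −15.4) for the peaks without minus those with. It was 52.8% within 1 kb of a TSS, and 31.1% for intergenic peaks without an ATACseq peak, 3.56 points (2.22 to 4.91) under the gene-body peaks.

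**Figure D3:**
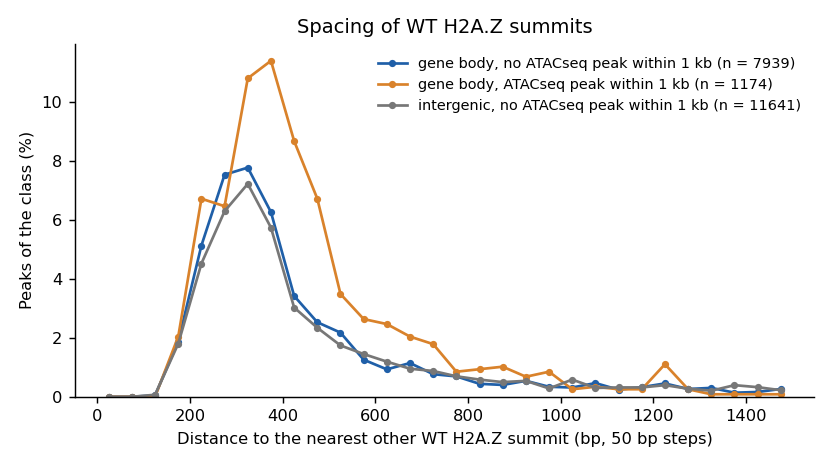
Share of WT H2A.Z peaks by distance to the nearest other WT H2A.Z summit, in 50 bp steps up to 1500 bp, for gene-body peaks (blue), gene-body peaks with a WT ATACseq peak within 1 kb (orange) and intergenic peaks without one (grey). Gene-body peaks were most frequent at 300 to 350 bp (7.78%), in the same range as the other classes.

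There were 1155 pairs of neighbouring gene-body summits 300 to 700 bp apart, with a median gap of 395 bp. Every motif searched was found at a larger share of their midpoints than of the summits, not only the motifs of hepatocyte transcription factors. The HNF1 motif (GTTAATNAT) was found in the 100 bp at 39 of 1155 midpoints (3.38%, interval 2.48 to 4.58%), against 0.290% of the 100 bp at the 7939 summits and 0.327% of 7918383 tiles of 100 bp that cut up the eligible sequence. The HNF4 motif (CAAAGTCCA) was found at 16 midpoints (1.39%, 0.854 to 2.24%), against 0.189% of summits and 0.123% of tiles. The FOXA motif (TGTTTAC) was found at 46 midpoints (3.98%, 3.0 to 5.27%), against 2.10% of summits and 1.48% of tiles. The C/EBP motif (TTGCNNAA) was found at 102 midpoints (8.83%, 7.33 to 10.6%), against 3.79% of summits and 4.34% of tiles. The AP-1 motif (TGANTCA) differed little, at 3.38% of midpoints, 3.10% of summits and 2.94% of tiles. The E-box (CACGTG) was at 1.82% of midpoints, 1.16% of summits and 1.11% of tiles. Midpoint values of the others were 7.62% against 4.97% of tiles for the NFI motif (TGCCAA), 1.65% against 0.777% for the CTCF core (CNAGGNGGC) and 0.519%, from 6 midpoints, against 0.0606% for ETS (CCGGAAGT). All letters were searched on both strands.

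The HNF1 matches were concentrated between the summits. Over all 1155 pairs, 16 HNF1 matches started in the 50 bp before the midpoint and 24 in the 50 bp after it, against 1 to 9 in each other step of 50 bp out to 500 bp. This was not particular to HNF1: C/EBP had 57 and 59 starts in the 2 central steps, against 20 to 45 in each other step. FOXA had 27 and 21, against 8 to 29 in each other step. HNF4 matches were too few for such a profile: 8 started in each of the 2 central steps, but 9 started at 450 to 400 bp before the midpoint, and 0 to 5 in each other step. The median GC content of the 100 bp at the midpoints was 46% and they held 1.81 CpGs per 100 bp. The HNF1 share was 3.89% where both peaks of the pair were present in Uhrf1hepKO (26 of 669 pairs) and 2.67% in the other pairs (13 of 486). Intergenic pairs without an ATACseq peak had the HNF1 motif at 2.13% (1.53 to 2.96%) and the HNF4 motif at 2.57% (1.90 to 3.47%) of 1595 midpoints. In gene-body pairs with an ATACseq peak within 1 kb these shares were 2.42% (1.23 to 4.71%) and 0.909% of 330 midpoints. At pairs within 1 kb of a TSS they were 0.351% and 0.203% of 5417, below the gene-body shares by more than the counting intervals. The midpoints with a match lay in 53 genes. No midpoint held both motifs.

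**Figure D4:**
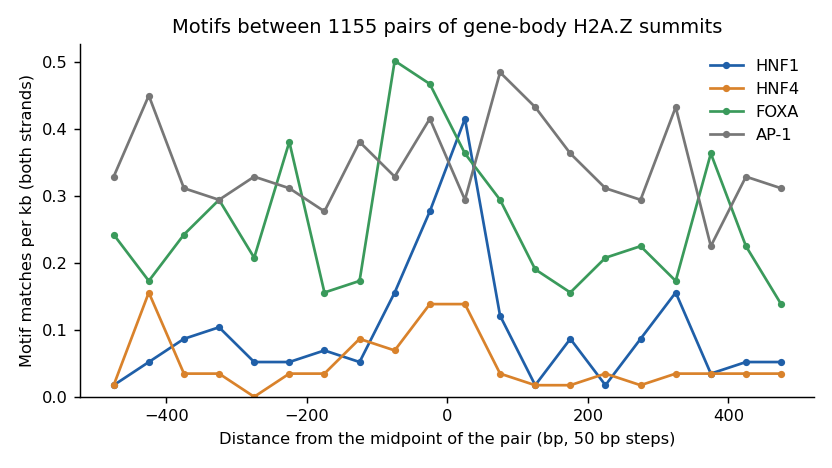
Starts of motif matches per kb on either strand, by distance from the midpoint of 1155 pairs of gene-body H2A.Z summits, in 50 bp steps, for HNF1 (blue), HNF4 (orange), FOXA (green) and AP-1 (grey). HNF1 reached 0.416 per kb in the step after the midpoint, from 16 and 24 matches in the central steps, while AP-1 had no such peak.

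At the summits the DNA held more CpGs and fewer repeats than the eligible sequence. The 200 bp at a summit held 1.27 CpGs per 100 bp on average, against 0.885 in tiles of 200 bp of the eligible sequence, 1.08 at intergenic peaks without an ATACseq peak, 2.20 at gene-body peaks with one and 3.82 at peaks within 1 kb of a TSS. There was no CpG in the window of 17.3% of the peaks and in 26.5% of the tiles. The median GC content was 44.0% for the peaks and 42.5% for the tiles. The summit fell on a repeat-masked base in 1027 peaks (12.9%, 12.2 to 13.7%), whereas 27.9% of the eligible sequence is repeat-masked. How well short reads can be placed in repeats moves with this measure, and its part was not tested. In the 200 bp windows the FOXA motif was present at 4.84% (4.39 to 5.33%) of summits and 3.03% of tiles, and the HNF4 motif at 0.592% (0.446 to 0.786%) and 0.257%. For C/EBP the shares were 8.68% and 8.80%, and for HNF1 0.945% and 0.682%. The NFI motif was at 10.8% of summits against 9.89% of tiles, AP-1 at 6.74% against 5.96%, the CTCF core at 1.99% against 1.61%, the E-box at 2.32% against 2.25% and ETS at 0.290%, from 23 summits, against 0.125%.

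Whether the peaks were also called in Uhrf1hepKO liver was asked next, a measure that the rule did not use. An Uhrf1hepKO H2A.Z peak overlapped 4982 of the 7939 gene-body peaks, 62.8% (61.7 to 63.8%), while the share over all 50665 WT H2A.Z peaks was 70.0%. All other WT peaks were at 71.4%, a difference of −8.61 percentage points (−9.76 to −7.46) for gene-body minus other peaks. Gene-body peaks with an ATACseq peak within 1 kb were at 76.6%, a difference of −13.8 points (−16.4 to −11.1), and peaks within 1 kb of a TSS were at 81.0%, a difference of −18.3 points (−19.5 to −17.1). Intergenic peaks without an ATACseq peak were at 59.7%, a difference of 3.02 points (1.64 to 4.41). Presence moved with the WT fold, from 31.1% in the lowest of 10 fold classes to 98.6% in the highest. When the other classes were weighted to the fold classes of the gene-body peaks, presence was 66.5% for all other peaks, 68.3% for gene-body peaks with an ATACseq peak, 70.9% near a TSS and 62.6% for intergenic peaks. At equal WT fold the differences in presence were thus smaller, and gene-body and intergenic peaks were at 62.8 and 62.6%.

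**Figure D5:**
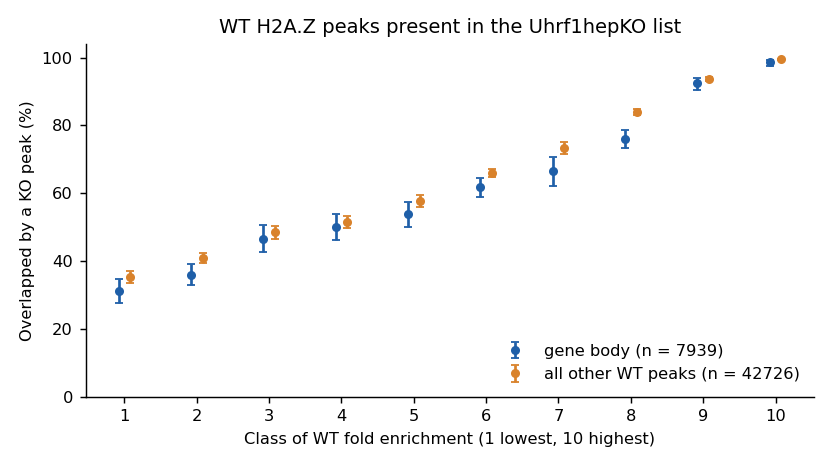
Share of WT H2A.Z peaks overlapped by an Uhrf1hepKO H2A.Z peak, in 10 classes of WT fold enrichment, for gene-body peaks (blue) and all other WT peaks (orange), with 95% Wilson intervals of counting error. Both go from 31.1 and 35.2% in the lowest class to 98.6 and 99.4% in the highest.

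In the other direction, a WT peak overlapped 4940 of the 7233 Uhrf1hepKO gene-body peaks, 68.3% (67.2 to 69.4%), against 75.7% of all 46400 Uhrf1hepKO peaks. The 2957 gene-body peaks without an Uhrf1hepKO peak had a median fold of 4.39 and a median width of 117 bp, against 5.36 and 166 bp for the 4982 with one. The 2293 Uhrf1hepKO peaks without a WT peak had a median fold of 4.42 and a width of 120 bp. The highest gene-body peaks without an Uhrf1hepKO peak were at 8.53 in Syt16 and 8.04 in Lcmt1, which encodes the methyltransferase of protein phosphatase 2A. Nsmce2, a SUMO ligase gene of the SMC5/6 complex, Setbp1, Nfib and Cib2 each had one at 7.80. Presence was 62.5% in introns (61.4 to 63.6%), 66.0% in coding exons (59.3 to 72.2%) and 67.1% in untranslated exons (61.0 to 72.6%), and it ranged from 58.6% on chromosome 16 to 67.9% on chromosome 12. Of the 1155 pairs, both peaks were present in 669 (57.9%), 1 in 389 and none in 97.

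WT gene-body peaks without a CpG were present in Uhrf1hepKO less often than the rest. Presence was 54.1% (51.5 to 56.7%) for the 1373 gene-body peaks with no CpG in 200 bp, 59.4% with 1, 65.8% with 2, 66.7% with 3 or 4 and 67.4% (64.7 to 70.0%) with 5 or more. The number of peaks with no CpG was 1373 in WT and 1054 in Uhrf1hepKO, a ratio of 0.768, against a ratio of 0.941 for peaks with at least 1. The difference in presence between peaks with no CpG and peaks with at least 1 was −10.4 percentage points (interval −13.3 to −7.58), and −4.34 points when weighted to equal fold classes. It was of similar direction in other classes, with 47.5% against 63.3% at intergenic peaks without an ATACseq peak and 66.5% against 81.5% within 1 kb of a TSS. At a GC content of 38 to 42%, presence was 50.2% with no CpG and 65.5% with at least 1, and under 38% it was 50.8% and 60.6%. At 50% or more it was 70.6% (58.9 to 80.1%) for the 68 peaks with no CpG and 64.9% for the rest, so the order turned there, within the counting interval. Whether the base composition of the 2 libraries has a part in this was not tested. In the reverse direction peaks with no CpG were not the lowest: a WT peak overlapped 67.6% (64.8 to 70.4%) of the 1054 Uhrf1hepKO gene-body peaks with no CpG, 64.9% of those with 1, 65.3% with 2, 70.8% with 3 or 4 and 73.8% with 5 or more. Of the Uhrf1hepKO peaks, 14.4% of those with a WT peak and 14.9% of those without one had no CpG, against 14.9% and 21.3% of the WT peaks with and without an Uhrf1hepKO peak. Peaks on a repeat-masked summit were present in 57.7% (54.7 to 60.7%), against 63.5% of the others.

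By gene, 2435 genes had a gene-body peak in both livers. Another 601 had one only in WT (19.8% of 3036 genes with a WT peak) and 411 only in Uhrf1hepKO (14.4% of 2846). Here a gene counts as having none when no peak in it met the rule. Over all peaks, 70.0% of WT and 75.7% of Uhrf1hepKO H2A.Z peaks were overlapped by a peak of the other liver. Gm20388 went from 39 to 28, Sgip1, an endocytosis gene, from 18 to 8, B3galt1 from 26 to 18 and Kalrn, which encodes a guanine nucleotide exchange factor, from 12 to 4, the largest differences downwards. Sntg1, a syntrophin gene, went from 8 to 20, the formin gene Diaph3 from 10 to 18, Gm3448 from 1 to 9 and Zbtb20 from 16 to 22, the largest upwards. In Sgip1 6 of the 18 WT peaks were overlapped by an Uhrf1hepKO peak, and in Kalrn 4 of 12, while in Zbtb20 it was 13 of 16. Rad51b had 53 and 56. Over all coding genes the rate was 9.96 per Mb in WT and 9.07 in Uhrf1hepKO, where the whole peak list was also shorter, and with 1 library each the spread of these counts between livers is not known.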

How the data were processed

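The 4 libraries were 1 WT and 1 Uhrf1hepKO library for each of H2A.Z ChIPseq and ATACseq. The authors mapped the reads with BWA-MEM (GRCm38.p4) and processed the alignments with Picard. They ran MACS2 on every library by itself, at a p-value that the paper gives as 0.05. FastQC 0.11.5 and Trimmomatic are named in the submitters' processing notes. The MACS2 version and a control library are not given in the sources used here. The deposited peak lists give a score for display, a ratio (the fold enrichment over local background), −log10 of p and q, and the summit offset. The highest q was 0.04996 among the WT H2A.Z peaks analysed and 0.0471 among the gene-body peaks. The WT peaks analysed thus end just under a q of 0.05, a stricter limit than the stated p-value. Which cutoff made the lists was not tested. The lists held 51702 WT and 47391 Uhrf1hepKO H2A.Z peaks. They hold no read counts, so depth is unknown, and folds are not scaled between libraries. How many peaks were called moves with depth, which was not tested.

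The members, gene lists, motif letters and comparisons were chosen with earlier results of these data known, and the pair midpoints with a match and their steps of 50 bp were chosen after the motif shares were seen. Summits were placed in GENCODE vM21 genes with Python 3.11.15, numpy 2.4.6 and pandas 2.3.3. Distances ran from the summit to the nearest base of an ATACseq peak. Presence in Uhrf1hepKO was any overlap of at least 1 bp. Eligible sequence was every base meeting the same rule, without assembly gaps. It was cut into tiles of 200 bp or 100 bp. Shares have Wilson intervals, differences Newcombe intervals and rates exact Poisson intervals, computed with scipy 1.17.1 and all for counting error only. Neighbouring peaks are not independent, so these are too narrow. Overlap, distance and rule functions were tested on simulated intervals.

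Named were the 12 genes with most peaks, the 10 peaks of highest fold, the 6 genes of highest rate among those with at least 5 peaks, the 6 highest peaks without an Uhrf1hepKO peak, the 6 highest coding-exon peaks, the 4 genes with most peaks in each list, and the 4 genes with the largest difference between livers in each direction. The liver enriched, cell proliferation, S3 and S5 lists are the study's own, with 258, 584, 405 and 184 entries. The liver enriched list, and the S3 and S5 lists together, hold more entries than the paper's text states. Sequences were read from the RefSeq FASTA of GRCm38.p6, whose chromosomes keep the GRCm38 coordinates. The sequences printed are part of those chosen by rank of fold, none from chromosome 18.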

Additional observations from a re-analysis of the deposited data

Results flagged for a closer look

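Although no WT ATACseq peak lay within 1 kb of any gene-body H2A.Z peak, by the rule, the Uhrf1hepKO ATACseq list, which no comparison above used, had a peak within 1 kb of 420 of them (5.29%, interval 4.82 to 5.80%). The share was 25.4% over all WT H2A.Z peaks, 7.43% over those without a WT ATACseq peak within 1 kb and 4.05% (3.70 to 4.42%) over intergenic peaks without one. Of these 420 peaks, 314 (74.8%, 70.4 to 78.7%) were overlapped by an Uhrf1hepKO H2A.Z peak, against 62.8% of all gene-body peaks and 70.0% of all WT H2A.Z peaks. The share among all 2713 WT peaks near an Uhrf1hepKO but no WT ATACseq peak was 76.9%. Of the 7939 gene-body peaks, 71 (0.894% of all) had an Uhrf1hepKO ATACseq peak over the summit. Among the 420, those of highest WT fold were in 1700008O03Rik at 13.4, Fignl1 at 13.2, Dhcr7 at 13.2, Myo7a, which encodes an unconventional myosin, at 12.2 and Ano6, which encodes a lipid scramblase, at 11.7. The rule set the WT count to 0, so the 2 ATACseq libraries cannot be compared on these peaks, and the difference was not tested.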

How the results depend on the processing

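No paired analysis was possible because each condition had 1 library, and no library could be left out. Of 88 alternatives, 48 stayed within the counting interval of the value reported (within 1.5 times for counts) and 40 did not. With a TSS distance of 2 kb the intron share was 93.8%, CpGs 1.33 per 100 bp and the rate 10.4 per Mb, and with 10 kb CpGs were 1.23 and the rate 9.64. With the start of any transcript in place of the gene the intron share was 96.6%, presence in Uhrf1hepKO 61.0%, peaks in genes with 2 or more 81.3%, CpGs 1.08, the share with a neighbour within 500 bp 32.8% and the rate 8.92. With no rule on ATACseq peaks presence was 64.5%, peaks in genes with 2 or more 84.6%, CpGs 1.39, neighbours 37.0% and the rate 11.4. An ATACseq distance of 5 kb gave a rate of 9.71, and a 3′ end distance of 5 kb an intron share of 95.8%. Peaks that reached the median fold numbered 3743, and had presence of 82.0%, 68.8% in genes with 2 or more, CpGs 1.32, neighbours 25.6% and a rate of 4.71, where fewer peaks enter by construction. A q of at most 0.01 gave a rate of 9.78. The centre of the peak in place of the summit gave CpGs of 1.30, 14.1% on repeat-masked bases and neighbours of 33.3%. Presence was 47.1% with an overlap of at least 50% of both peaks, 55.6% with a summit within the length of a nucleosome core and 72.0% with a peak within 500 bp. The intron share was 92.2% with exons of all gene types and 91.2% when any exon overlap counted. Peaks in genes with 2 or more were 74.0% with summits within 500 bp counted as 1. Neighbours were 2.03% within 200 bp and 43.4% within 1 kb. CpGs were 1.37 over the peak itself. The difference in presence from all other WT peaks was −3.78 points at equal fold classes. Alternatives chosen after seeing the data left out the gene with most peaks of a list, which gave 11.9 per Mb for cell proliferation genes without Rad51b, and weighted peaks with and without CpGs to equal fold classes, which gave −4.34 points. Except where the alternative itself changes which peaks or bases enter, the cause was not tested. Counts of peaks depend on depth, which the files do not give. With 1 library per assay and genotype, a difference between livers cannot be told apart from one between libraries.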
